A study of Homo sapiens with 9 samples.

Results

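In the deposited table of 16630 genes, 6 are described here: KCNK15, ABCB11, GATM, UCHL1, PNLIPRP3 and SDCBP2. They were selected on their FPKM in the siMENA11a and control libraries, being about 2-fold or more higher after siRNA against exon 11a of ENAH than after control siRNA, so their difference in that comparison is given as a description, without a test. RNA came from H1650, an established human line from a non-small cell lung cancer, 3 days after the cells were transfected with 20 nM siRNA. Cells of the siMENA11a group were given 3 siRNAs together, all matching exon 11a, the alternatively spliced exon that marks the epithelial isoform hMENA11a of the actin regulator hMENA. The siMENA group received an siRNA pool against all ENAH transcripts, and the control group a non-targeting pool. Each group had 3 libraries from ribosome-depleted total RNA, labelled as biological replicates, and all groups had the cell line and the transfection reagent in common. Levels are FPKM, which divide the fragments of a gene by its length and by the library's total, so they can be set side by side between genes. The table holds no counts, and the depth behind each value is unknown.

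ENAH encodes hMENA, a member of the Ena/VASP family that promotes the growth of actin filaments at the leading edge and at cell contacts, and epithelial tumour cells splice in exon 11a where mesenchymal cells leave it out. The 6 genes belong to different pathways. They are a potassium channel subunit, a bile salt pump, enzymes of creatine synthesis, ubiquitin recycling and lipid cleavage, and an adaptor protein, and several are best known from tissues other than lung: ABCB11 from liver, GATM from kidney and pancreas, UCHL1 from neurons and neuroendocrine cells. The sequence against which the siMENA11a mix was designed is shown here because it defines the perturbation. In the GENCODE annotation it is an exon of 63 bases within the coding part of ENAH, at chr1:225504991-225505053 of GRCh38 on the minus strand, and 2 of 9 annotated transcripts of ENAH hold it.
ENAH exon 11a: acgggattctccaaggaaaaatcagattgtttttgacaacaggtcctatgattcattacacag

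The silencing can be read from ENAH itself. ENAH measured 9.98, 11.0 and 10.3 FPKM in siMENA11a replicates 1 to 3, 4.43, 5.79 and 5.57 FPKM in siMENA and 26.1, 30.0 and 26.1 FPKM in control, a mean of 38.1% of control for siMENA11a and 19.2% for siMENA. The values are per gene and do not separate the isoforms. The libraries expressed epithelial markers: EPCAM averaged 159.0 ± 8.65 FPKM in siMENA11a, 145.0 ± 5.38 in siMENA and 150.1 ± 13.9 in control (SD, n = 3 each, as throughout). Of the lung lineage markers, NKX2-1, NAPSA and SFTPC had no complete values and SFTPB averaged 0.188 FPKM. Of 6 epithelial markers above the filter of 0.5 FPKM, 3 fell in siMENA11a and 1 in siMENA, and none rose, against 11.3% of all genes called lower in siMENA11a and 8.24% in siMENA. CDH1, the adhesion protein E-cadherin, fell by 0.42 on the log2(FPKM + 1) scale in siMENA11a (limma adjusted p 0.00196) and the keratin KRT18 fell by 0.40 (adjusted p 0.0102). KRT8 fell by 0.35 (adjusted p 0.029), a call lost when siMENA11a replicate 1 (0.0681) or 2 (0.0594), or any of control replicates 1 to 3 (0.0802, 0.0531 and 0.0946), was left out, over 0.00332 to 0.0946. KRT7 fell by 0.41 in siMENA (adjusted p 0.0059). The summed level of the 8 markers of the list among the deposited genes was 3939 to 4425 FPKM in siMENA11a. It was 4693 to 4893 FPKM in siMENA and 4820 to 5135 in control. The part of these shifts in the values below was not tested. In bulk RNA, fewer cells that express a gene and less of its RNA per cell cannot be told apart.

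The RefSeq promoter table (GRCh38.p14, 250 bases before to 50 after a start site) held 7 promoters for 5 of the 6 genes, GATM, UCHL1, ABCB11 and PNLIPRP3 with 1 each and SDCBP2 with 3; KCNK15 was not matched. Promoters were searched on both strands for 7 short motifs, given by their letters (N stands for any base). The AP-1 motif TGANTCA, the element of FOS and JUN dimers, was found in 3 of the 7 promoters and in 7.71% of the 35116 promoters in the table. It lay at -189 to -183 from the start of ABCB11, at -86 to -80 from the most upstream start of SDCBP2 and at -104 to -98 from the start of PNLIPRP3, where +1 is the first transcribed base. These 3 promoters are shown with the motif in capitals, at chr2:169031275-169031574 (minus strand) for ABCB11, chr20:1329090-1329389 (minus strand) for SDCBP2 and chr10:116427597-116427896 (plus strand) for PNLIPRP3.
ABCB11: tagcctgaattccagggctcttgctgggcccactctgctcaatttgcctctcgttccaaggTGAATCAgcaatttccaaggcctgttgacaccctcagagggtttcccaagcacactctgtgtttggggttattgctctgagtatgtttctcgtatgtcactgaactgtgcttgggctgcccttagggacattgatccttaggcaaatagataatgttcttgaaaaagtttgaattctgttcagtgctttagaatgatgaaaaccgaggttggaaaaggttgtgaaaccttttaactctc
SDCBP2: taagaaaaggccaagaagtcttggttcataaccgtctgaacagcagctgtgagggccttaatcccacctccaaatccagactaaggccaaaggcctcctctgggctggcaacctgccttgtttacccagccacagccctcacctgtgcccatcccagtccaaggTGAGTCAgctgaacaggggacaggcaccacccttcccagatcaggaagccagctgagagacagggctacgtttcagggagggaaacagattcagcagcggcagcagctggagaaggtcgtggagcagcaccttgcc
PNLIPRP3: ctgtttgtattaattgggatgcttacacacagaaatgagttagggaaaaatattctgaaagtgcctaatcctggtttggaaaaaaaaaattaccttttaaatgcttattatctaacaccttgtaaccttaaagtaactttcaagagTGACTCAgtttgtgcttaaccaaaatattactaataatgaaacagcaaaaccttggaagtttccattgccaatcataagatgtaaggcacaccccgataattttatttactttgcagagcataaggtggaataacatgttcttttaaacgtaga
A loose NF-kB pattern, GGG and CC held 5 bases apart, was in 4 of the 7 promoters and in 58.7% of all, and the E-box CANNTG in 4 of 7 and 68.7%. The AP-1 match of SDCBP2 overlaps 1 of these E-boxes. The GC box GGGCGG, which lies inside an NF-kB match in GATM and in UCHL1, was in 3 of 7 and 45.0%, and the TATA box TATAAA in the UCHL1 promoter alone and in 11.5% of all. The interferon element ISRE, GAAA repeated after 2 bases (3.57% of all), and the TEAD motif GGAATG (14.0% of all) were in none. The GC content ran from 32.3% (PNLIPRP3) to 73.3% (GATM), against a median of 58.7% over all promoters. These matches are a description of letters and say nothing of factor binding in H1650.

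**Figure D1:**
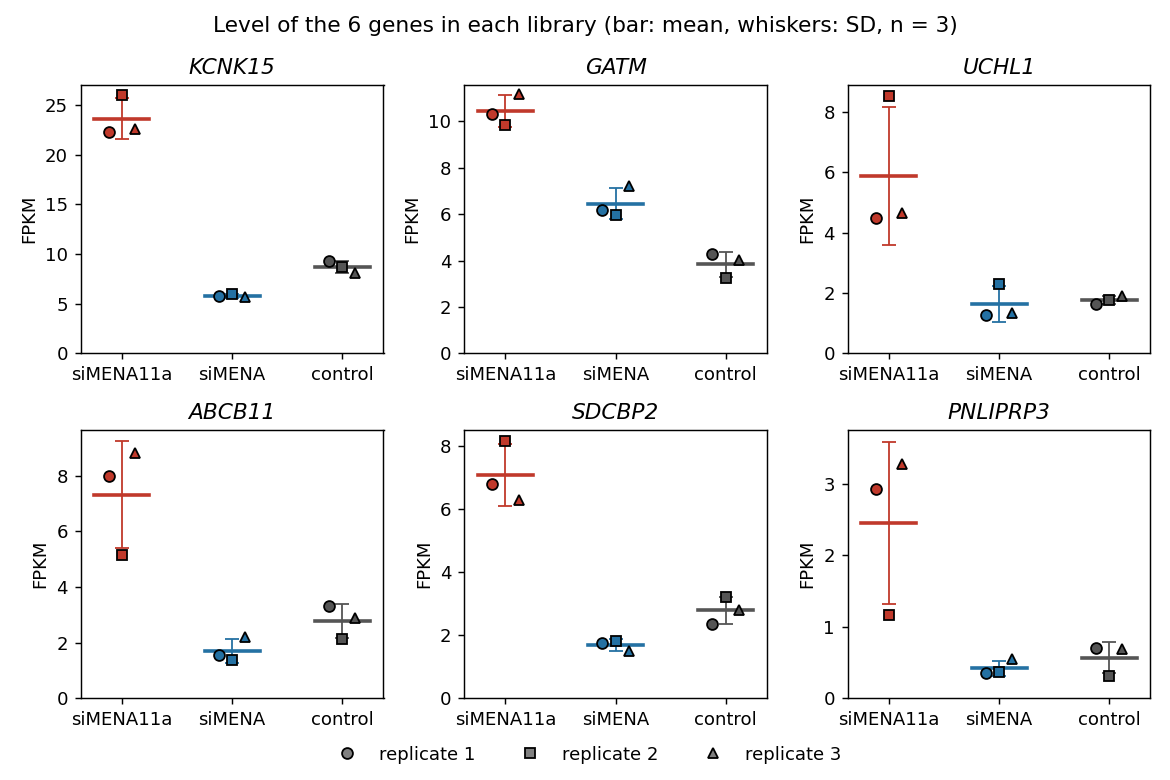
FPKM of each of the 6 genes in the siMENA11a, siMENA and control libraries (symbols give the replicate number, the horizontal bar the mean and the whiskers the SD of 3 libraries). All 3 siMENA11a libraries lie above all other libraries in each gene, while siMENA lies below control for KCNK15 and SDCBP2 and above it for GATM.

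KCNK15 encodes TASK-5, a member of the two-pore-domain potassium channels, the family that carries background potassium currents, although TASK-5 alone has not given currents in test cells. It was the most abundant of the 6 in siMENA11a and in control. It measured 22.3, 26.0 and 22.6 FPKM in siMENA11a, 5.74, 5.94 and 5.63 FPKM in siMENA and 9.26, 8.64 and 8.12 FPKM in control. The 3 groups did not overlap, with siMENA11a highest and siMENA lowest. The mean in siMENA11a was 2.72 times that in control, and the mean in siMENA was 66.5% of control.

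ABCB11 encodes the bile salt export pump, which moves bile salts out of hepatocytes at the cost of ATP. It measured 7.98, 5.16 and 8.83 FPKM in siMENA11a, 1.55, 1.38 and 2.20 FPKM in siMENA and 3.34, 2.12 and 2.88 FPKM in control. All siMENA11a libraries were above the rest, by a mean of 2.63 times control, whereas siMENA and control overlapped, since control replicate 2 was below siMENA replicate 3.

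Of the 3 enzymes, GATM makes guanidinoacetate from arginine and glycine in mitochondria, the first step of creatine synthesis. GATM measured 10.3, 9.83 and 11.2 FPKM in siMENA11a, 6.19, 5.97 and 7.20 FPKM in siMENA and 4.28, 3.23 and 4.01 FPKM in control. The groups did not overlap, and siMENA lay between siMENA11a and control. This order is unlike that of the other 5 genes, whose siMENA mean was below the control mean. For ABCB11, UCHL1 and PNLIPRP3, however, the siMENA and control libraries overlapped. The ratios of means to control were 2.72 for siMENA11a and 1.68 for siMENA.

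UCHL1, a ubiquitin C-terminal hydrolase that is among the most abundant proteins of neurons, measured 4.48, 8.51 and 4.64 FPKM in siMENA11a, 1.26, 2.31 and 1.34 FPKM in siMENA and 1.62, 1.76 and 1.90 FPKM in control. Replicate 2 was the highest in both siRNA groups, and siMENA spread on both sides of control. The ratio of the siMENA11a mean to control was 3.34, and without siMENA11a replicate 2 the difference in log2(FPKM + 1) was 1.01, against 1.27 with it.

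PNLIPRP3, named for its similarity to pancreatic lipase, was the lowest of the 6. It measured 2.93, 1.16 and 3.27 FPKM in siMENA11a, 0.361, 0.364 and 0.546 FPKM in siMENA and 0.699, 0.315 and 0.685 FPKM in control. The siMENA11a libraries were above the others, and replicate 2 stood lowest both there and in control. The ratio of means was the largest of the 6, at 4.33, while the difference in log2(FPKM + 1) was the smallest, at 1.09, since the added 1 weighs most at low levels; it was 1.88 with an added 0.1. Its mean over the 9 libraries, 1.15 FPKM, passed the filter of 0.5 FPKM, as did the means of the other 5 genes, up to 12.7 FPKM for KCNK15. For PNLIPRP3 this pass leaned on siMENA11a, the group that chose it, at a mean of 2.45 FPKM. Its means were 0.424 FPKM in siMENA and 0.566 FPKM in control.

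SDCBP2 encodes syntenin-2, an adaptor with PDZ domains that binds phosphoinositides and, like its relative syntenin-1 (SDCBP), is linked to syndecans and vesicle traffic. It measured 6.79, 8.18 and 6.29 FPKM in siMENA11a, 1.77, 1.83 and 1.496 FPKM in siMENA and 2.35, 3.22 and 2.82 FPKM in control. The groups did not overlap, in the same order as for KCNK15. The siMENA11a mean was 2.53 times control and the siMENA mean 60.7% of control. SDCBP2 overlaps the read-through locus FKBP1A-SDCBP2, whose 9 values ran from 5.53e-05 to 1.29 FPKM, and both SDCBP2 and KCNK15 overlap an antisense gene in RefSeq. Whether the counting used strand and how the authors divided shared fragments is not known here, so the levels of both genes are uncertain in this respect. KCNK15 also overlaps RIMS4. RIMS4 averaged 9.38 FPKM in siMENA11a, 7.40 in siMENA and 7.51 in control, and its part in the KCNK15 values was not tested.

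In siMENA11a the order of the mean levels was KCNK15, GATM, ABCB11, SDCBP2, UCHL1 and PNLIPRP3. The ranges of ABCB11 (5.16 to 8.83 FPKM), SDCBP2 (6.29 to 8.18) and UCHL1 (4.48 to 8.51) overlapped one another there, and the other neighbours in the order did not overlap. In control the order was the same except that SDCBP2 stood before ABCB11, with overlapping ranges. In siMENA GATM, at 5.97 to 7.20 FPKM, passed KCNK15, at 5.63 to 5.94 FPKM.

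In siMENA11a against control the differences in log2(FPKM + 1) were 1.35 for KCNK15, 1.27 for UCHL1, 1.25 for GATM, 1.12 for ABCB11, and 1.09 for both SDCBP2 and PNLIPRP3, with standard errors (SE) of 0.07, 0.21, 0.10, 0.19, 0.11 and 0.23. All 6 genes had every siMENA11a library above every control library, in the comparison that chose them, while 8.16% of the 13273 genes tested were called higher at an adjusted p under 0.05 (limma, Benjamini-Hochberg) and 16.6% had groups that did not overlap in that direction. Calls in either direction made up 19.5% of genes there, 18.6% in siMENA against control and 36.6% in siMENA11a against siMENA. At a difference of 1 or more (2-fold on this scale) there were 20 genes, 0.151% of those tested, and 16 of them (0.121%) also passed the test. The 6 genes are among the 20 but are not its top. SNORD116-20 (1.63), S100P (1.56) and BIRC3 (1.37) also passed and lay above all 6. OR7E91P (1.10) and CCL5 (1.09) passed and lay among them. Why the other genes of the 20 were not taken is not known here. Just under the lowest of the 6 lay PODXL2, a sialomucin, at 1.07, and 4 further genes lay between 1.03 and 1.07. The first gene under a difference of 1 was STX19, a syntaxin, at 0.98. Its means were 1.94 FPKM in siMENA11a and 0.491 FPKM in control, so it too was above 2-fold in FPKM. The added 1 weighs most at low levels, so the 20 genes are not all those that reached 2-fold in FPKM.

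By the stated rule the siMENA libraries took no part in the choice of the genes, and siMENA against control was tested. The same control libraries entered the choice, and earlier results of these data were known when it was made. The test is therefore not free of selection. In siMENA against control GATM rose, KCNK15 and SDCBP2 fell, and the other 3 missed the threshold. Of these 3, PNLIPRP3 owed its place in the test in part to the siMENA11a libraries. This main fit had no term for the replicate number. The 6 genes had a median difference of -0.30 in log2(FPKM + 1), against 0.04 over all 13273 genes. Of all genes tested, 10.3% were called higher and 8.24% lower, and 23.8% had every siMENA library above and 16.3% every siMENA library below all control libraries. Lower calls were 44.4% of all calls, and 56.2% with median-ratio scaling of the libraries. GATM rose by 0.63 (SE 0.10, limma adjusted p 0.00284) and was higher in 3 of 3 libraries than in every control library. KCNK15 fell by 0.51 (SE 0.07, adjusted p 0.00168) and SDCBP2 fell by 0.49 (SE 0.11, adjusted p 0.0151), each lower in 3 of 3 libraries. The SDCBP2 call ended without control replicate 2 (adjusted p 0.0504) or control replicate 3 (0.0521), and its adjusted p ran from 0.00573 to 0.0521 over the alternatives.

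ABCB11 had a difference of -0.48 (SE 0.19) and did not pass in siMENA against control (adjusted p 0.105). With the replicate number as a block, the number being shared between these groups, the adjusted p was 0.0157, and without siMENA11a replicate 2, which enters the common estimate of spread, it was 0.0424, over a range of 0.0157 to 0.28. UCHL1 had a difference of -0.09 (SE 0.21, adjusted p 0.80) and PNLIPRP3 one of -0.13 (SE 0.23, adjusted p 0.728). For both the SE leaves room for a difference in either direction. PNLIPRP3 was compared there close to the filter, at means of 0.424 FPKM in siMENA and 0.566 FPKM in control. The filter took in the siMENA11a libraries, which chose the gene, so no conclusion is drawn from its test.

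**Figure D2:**
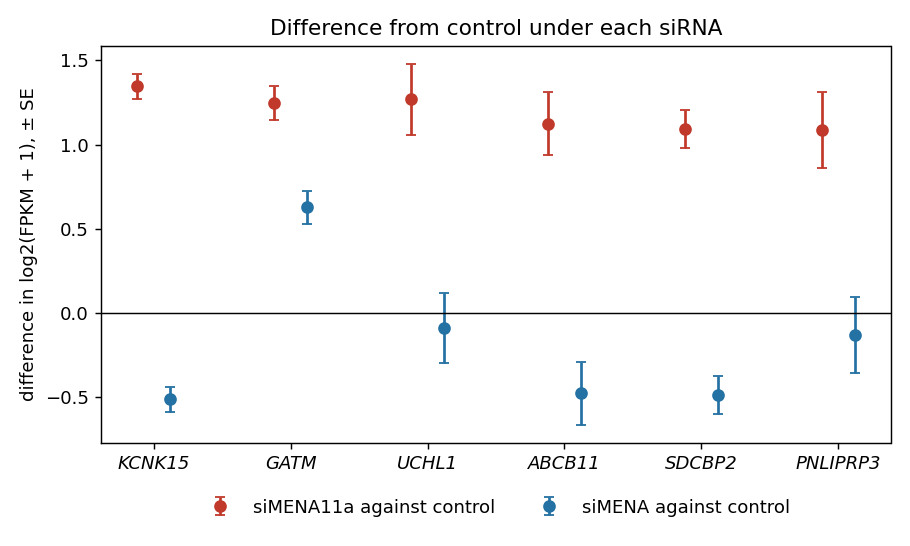
Difference from control in log2(FPKM + 1), with its SE, for the 6 genes in siMENA11a (red) and siMENA (blue), 3 libraries per group. The siMENA11a values lie between 1.09 and 1.35, and the siMENA values between -0.51 (KCNK15) and 0.63 (GATM); both sets share the control libraries.

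Both comparisons with control share its libraries, and their values stand side by side: 1.35 in siMENA11a and -0.51 in siMENA for KCNK15, 1.12 and -0.48 for ABCB11, and 1.25 and 0.63 for GATM. Directly between the siRNA groups, where the siMENA11a libraries had entered the choice and no test is given, the ratio of the siMENA11a mean to the siMENA mean was 1.62 for GATM, 3.60 for UCHL1, 4.09 for KCNK15, 4.17 for SDCBP2, 4.28 for ABCB11 and 5.79 for PNLIPRP3. All siMENA11a libraries exceeded all siMENA libraries in each of the 6 genes, and 19.2% of all genes tested had the same order; 9.46% had every siMENA11a library above all 6 others. Every siMENA11a library above and every siMENA library below all control libraries, as for KCNK15 and SDCBP2, was seen in 389 genes, 2.93% of those tested. Of the 20 genes at a difference of 1 or more in siMENA11a, 9 had a siMENA difference below 0, 5 of them among the 6. Of those 5, KCNK15 and SDCBP2 passed in siMENA, and ABCB11, UCHL1 and PNLIPRP3 did not. The share of all genes below 0 is not given here.

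Within the groups, the spread followed the replicate number in part. Replicate 2 was the lowest library in all 3 groups for GATM and ABCB11 and in siMENA11a and control for PNLIPRP3. For SDCBP2 it was the highest in all 3 groups, and for KCNK15 and UCHL1 the highest in both siRNA groups. Of all genes tested, 10.6% had replicate 2 lowest in all 3 groups and 13.5% had it highest. The coefficient of variation in siMENA11a was 6.50% for GATM, 8.74% for KCNK15 and 13.8% for SDCBP2, against 26.3% for ABCB11, 38.9% for UCHL1 and 46.1% for PNLIPRP3. What the replicate number stands for is not given in the labels.

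**Figure D3:**
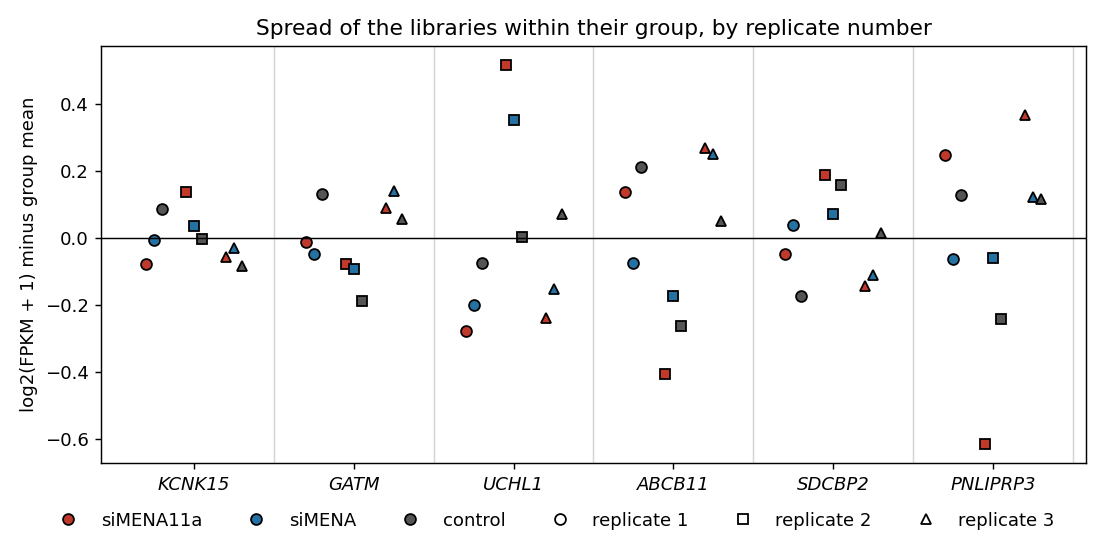
Deviation of each library from its group mean in log2(FPKM + 1) for the 6 genes, ordered within a gene by replicate number (circle, square and triangle for 1, 2 and 3; colour for the group). Replicate 2 lies below its group mean for ABCB11 in all 3 groups, and UCHL1 and PNLIPRP3 show the widest spread, in siMENA11a.

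Across the 9 libraries the 6 genes varied together to different degrees, which the choice of genes that rise in siMENA11a builds in. Pearson's r of log2(FPKM + 1) was highest between KCNK15 and SDCBP2, at 0.984, and lowest between GATM and SDCBP2, at 0.614. GATM had r of 0.614 to 0.769 with the other 5. By the same measure over the 9 libraries, and with a floor of 1 FPKM on the mean, the genes most like KCNK15 were ZNF323 (r 0.994), TMEM161B (0.987) and BCAP29 (0.987). Those most like ABCB11 were NCOA7 (0.996), PRKCH (0.991) and MBNL3 (0.990). Those most like SDCBP2 were OR7E91P (0.988), TFPI (0.988) and PILRB (0.986), where OR7E91P is a pseudogene of a large receptor family and its value is uncertain.

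GATM was most like ANGPTL4 (r 0.985), CFI (0.983) and IRF9 (0.980). Each had its siMENA mean between the other groups, an order that the choice by r to GATM favours. ANGPTL4 averaged 47.4 FPKM in siMENA11a, 34.1 in siMENA and 22.3 in control, and IRF9 29.4, 20.8 and 15.1 FPKM in the same groups. CLK1 (0.977) and SQSTM1 (0.973) were among the genes most like UCHL1, and PNLIPRP3 was most like ITM2B (0.987), PHF3 (0.982) and FBXO28 (0.975). These values of r hold both the differences between groups and the spread within them.

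The 8 lists drawn up for the families and pathways of the 6 genes held 59 tested genes other than the 6, of which 10 rose and 6 fell in siMENA11a (16.9% and 10.2%, against 8.16% and 11.3% of all genes), and 10 rose and 7 fell in siMENA (16.9% and 11.9%, against 10.3% and 8.24%). Their median difference in log2(FPKM + 1), the scale of all differences below, was 0.07 in siMENA11a and 0.03 in siMENA, against -0.01 and 0.04 over all genes. The related genes ran from -0.71 to 0.64 in siMENA11a and from -0.98 to 0.67 in siMENA, where the 6 genes ran from -0.51 to 0.63.

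Of the potassium channels, 2 of 7 other members rose in siMENA11a, none fell, and the median was 0.18. KCNK1, which passes weak background currents, averaged 35.8 ± 3.3 FPKM in siMENA11a and 28.9 ± 0.5 in control (difference 0.30, SE 0.07, limma adjusted p 0.0128). KCNK3, which encodes TASK-1, a close relative of TASK-5, averaged 1.96 ± 0.13 FPKM in siMENA11a and 1.21 ± 0.19 in control (0.42, and 0.66 with an added 0.1 in place of 1; adjusted p 0.0128), but did not pass once control replicate 3 was left out (0.35, adjusted p 0.0536; 0.00801 to 0.0536 over the alternatives). In siMENA 1 of 7 fell, KCNK12, by 0.82 (adjusted p 0.0173), and did not pass when siMENA replicate 1 (-0.74, adjusted p 0.0694), control replicate 1 (-0.69, 0.0649) or control replicate 3 (-0.77, 0.0619) was left out, over 0.0047 to 0.0694. KCNK9, which encodes TASK-3, had no complete values.

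Of 8 other tested genes of bile acid synthesis and transport, of 21 listed, 2 rose in siMENA11a and none fell, and 1 rose and 1 fell in siMENA. ABCC3, which exports conjugated bile acids and drugs across the basolateral membrane, averaged 29.5 ± 1.4 FPKM in siMENA11a and 19.3 ± 2.0 in control (difference 0.59, SE 0.09, limma adjusted p 0.00231), against 20.8 ± 2.4 in siMENA (0.10, adjusted p 0.48). ATP8B1, a flippase needed for bile flow, rose by 0.26 in siMENA (adjusted p 0.00874) and by 0.19 in siMENA11a (adjusted p 0.033), where the call was lost without siMENA11a replicate 1 (0.0992) or 3 (0.0878), siMENA replicate 2 (0.0519) or any of control replicates 1 to 3 (0.0947, 0.0838 and 0.0719), and with no mean-variance trend (0.0549), over 0.0127 to 0.0992. ABCC2, an exporter of conjugates into bile, fell by 0.31 in siMENA (adjusted p 0.0369), a call lost without siMENA11a replicate 1 (0.0505), any of siMENA replicates 1 to 3 (0.121, 0.0828 and 0.0558) or control replicate 1 (0.12) or 2 (0.0831), over 0.0203 to 0.121; its difference was -0.53 with an added 0.1. The bile acid enzymes CYP7A1 and CYP8B1 and the transporter ABCB4, the nearest relative of ABCB11 in bile secretion, had no complete values, nor had the bile acid receptor NR1H4. In the ABCB family 1 of 6 other members rose and 1 fell in siMENA11a and 2 fell in siMENA. ABCB10, a mitochondrial transporter, fell by 0.98 in siMENA (3.68 ± 0.0456 FPKM, against 8.23 ± 0.191 in control; adjusted p 2.45e-05), a difference of -1.01 with either median-ratio or quantile scaling and -1.14 with an added 0.1, and by 0.24 in siMENA11a (adjusted p 0.03), where leaving out siMENA11a replicate 2 (0.0767) or 3 (0.0583) or any of control replicates 1 to 3 (0.0777, 0.0879 and 0.0698) ended the call, over 0.024 to 0.0879. ABCB8, also mitochondrial, fell by 0.35 in siMENA (adjusted p 0.00747). TAP2, a peptide transporter of antigen presentation, rose by 0.31 in siMENA11a (0.62 with an added 0.1; adjusted p 0.038), a call lost without siMENA11a replicate 1 (0.111) or 3 (0.0903), siMENA replicate 3 (0.0509) or any of control replicates 1 to 3 (0.0942, 0.0998 and 0.0721), over 0.0186 to 0.111. Of 10 hepatocyte markers, 1 was above the filter, SERPINA1, at 3.35 ± 0.82 FPKM in siMENA11a and 4.45 ± 1.02 in control, and it did not pass (adjusted p 0.394). In siMENA SERPINA1 averaged 3.14 ± 1.65 FPKM and did not pass (-0.45, adjusted p 0.237), but did with the replicate block (0.0389) or without siMENA replicate 2 (-0.76, 0.0293). The summed level of the 5 markers of this list among the deposited genes ran from 3.01 to 4.67 FPKM in siMENA11a. It was 2.65 to 5.77 FPKM in siMENA and 4.45 to 6.26 in control. ALB, APOB and TTR had no values, and the sum does not cover them.

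GAMT, which methylates the product of GATM to creatine, averaged 11.6 ± 0.817 FPKM in siMENA11a and 12.4 ± 0.305 in control and did not pass (difference -0.08, SE 0.07, limma adjusted p 0.45). In siMENA GAMT rose by 0.26 (adjusted p 0.0275), a call lost without siMENA replicate 1 (0.106) or 2 (0.0861) or any of control replicates 1 to 3 (0.0857, 0.0526 and 0.0799), over 0.0166 to 0.106. CKB, the cytosolic creatine kinase, fell to 22.4 ± 2.8 FPKM in siMENA11a, against 37.3 ± 4.6 in control (difference -0.71, SE 0.11, limma adjusted p 0.00201), and was 39.4 ± 3.7 in siMENA. Of 5 other genes of creatine synthesis, uptake and use, 1 thus fell in siMENA11a and none rose, and 1 rose in siMENA. With the replicate block a second gene did in siMENA, the creatine transporter SLC6A8 (0.31, adjusted p 0.0486, against 0.113 without the block). Of 8 genes of arginine and ornithine metabolism, which share the substrate of GATM, 2 rose and 1 fell in siMENA11a and 4 rose and 1 fell in siMENA. ODC1, which makes putrescine from ornithine, rose in both, to 61.1 ± 2.7 FPKM in siMENA11a and 55.8 ± 7.4 in siMENA, against 40.1 ± 0.4 in control (0.60 and 0.46, adjusted p 0.0013 and 0.00503). ASL, which releases arginine from argininosuccinate, fell by 0.32 in siMENA11a (adjusted p 0.003) and rose by 0.32 in siMENA (adjusted p 0.00319). ASS1, which makes argininosuccinate, rose by 0.33 in siMENA11a (adjusted p 0.0372) and fell by 0.43 in siMENA (adjusted p 0.0131). The ASS1 call in siMENA11a was lost without siMENA11a replicate 1 (0.0899) or 3 (0.108) or control replicate 2 (0.0993) or 3 (0.129), and with no mean-variance trend (0.0501), over 0.022 to 0.129, and that in siMENA without siMENA replicate 1 (0.0547), over 0.00885 to 0.0547. AGMAT, an agmatinase-type enzyme, rose by 0.67 in siMENA (adjusted p 0.0144), which was lost without siMENA replicate 1 (0.0602) or 2 (0.0519) or control replicate 1 (0.055) or 3 (0.0588), over 0.00579 to 0.0602.

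None of 7 other ubiquitin precursors and C-terminal hydrolases passed in siMENA11a. UCHL3, the closest relative of UCHL1, averaged 19.3 ± 1.0 FPKM in siMENA11a and 16.1 ± 2.0 in control (difference 0.26, adjusted p 0.055; it passed with median-ratio scaling at 0.0398, with quantile scaling at 0.0325, with the replicate block at 0.038 and without control replicate 2 at 0.0197), and rose to 24.3 ± 1.3 in siMENA (0.57, SE 0.08, limma adjusted p 0.0019). Of 10 neuroendocrine markers, with which UCHL1 is often read, 5 were among the deposited genes and 4 were above the filter. The sum over the 5 ran from 5.81 to 6.41 FPKM in siMENA11a, 6.66 to 8.36 in siMENA and 5.95 to 6.74 in control. INSM1, NEUROD1 and NCAM1 had no values, and the sum does not cover them. Of the 4, 1 fell in siMENA11a and rose in siMENA: SYP, a synaptic vesicle protein. SYP fell by 0.30 in siMENA11a (-0.50 with an added 0.1; limma adjusted p 0.0238), lost without siMENA11a replicate 3 (0.0733) or control replicate 2 (0.0812) or 3 (0.0604), over 0.0106 to 0.0812. It rose by 0.35 in siMENA (adjusted p 0.0132), lost without siMENA replicate 1 (0.0521) or control replicate 3 (0.053), over 0.00611 to 0.053.

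SDCBP rose in both siRNA groups, unlike SDCBP2. It averaged 76.7 ± 4.5 FPKM in siMENA11a, 77.0 ± 2.4 in siMENA and 60.4 ± 3.1 in control (differences 0.34 and 0.35, limma adjusted p 0.00445 and 0.00424), which made it far more abundant than SDCBP2 in each group. Of 12 other genes of the syntenin, syndecan and exosome list, 1 rose and 3 fell in siMENA11a and 1 rose and 2 fell in siMENA. The syndecan SDC2 had a difference of -0.81 in siMENA and did not pass (adjusted p 0.0551), but did with the replicate block (0.00029), with median-ratio (0.0456) or quantile scaling (0.0479), and without siMENA11a replicate 2 (0.0454) or siMENA replicate 2 (-1.08, 0.0188). SDC4, a syndecan that binds syntenin, averaged 364.1 ± 31.3 FPKM in siMENA11a, 181.8 ± 6.1 in siMENA and 341.0 ± 13.2 in control, and it fell in siMENA (-0.90, SE 0.07, adjusted p 7.08e-05). SDC3, another syndecan, fell by 0.30 in both siRNA groups (adjusted p 0.0288 in siMENA11a and 0.0268 in siMENA). Its siMENA11a call was lost without siMENA11a replicate 1 (0.0609) or 3 (0.0859) or any of control replicates 1 to 3 (0.0752, 0.0752 and 0.0721), over 0.0183 to 0.0859, and its siMENA call without siMENA replicate 1 (0.0923) or 2 (0.0633) or any of control replicates 1 to 3 (0.0765, 0.0667 and 0.07), over 0.0141 to 0.0923. ARF6, a GTPase of membrane traffic, fell by 0.27 in siMENA11a (adjusted p 0.0151), lost without control replicate 3 (0.0579), over 0.00857 to 0.0579.

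Of 6 other lipases above the filter, 2 rose in each siRNA group and none fell. LIPH, which releases lysophosphatidic acid, averaged 12.3 ± 2.4 FPKM in siMENA11a, 11.99 ± 0.498 in siMENA and 7.44 ± 0.531 in control (differences 0.64 and 0.62, limma adjusted p 0.00515 and 0.00645). LIPK, a lipase known from the epidermis, averaged 62.3 ± 4.5 FPKM in siMENA11a and 44.8 ± 1.8 in control (0.47, adjusted p 0.0016), and 40.9 ± 2.6 in siMENA (-0.13, adjusted p 0.209). LIPA, the lysosomal acid lipase, rose by 0.22 in siMENA (adjusted p 0.0203), lost without siMENA replicate 1 (0.0731) or 3 (0.0581) or control replicate 1 (0.0597) or 2 (0.0678), over 0.0109 to 0.0731. PNLIP, PNLIPRP1 and PNLIPRP2, the nearest relatives of PNLIPRP3, had no complete values. Of 10 pancreatic acinar markers 2 were among the deposited genes, CTRB1 and RBPJL, both without complete values. Their summed level stayed at or under 0.438 FPKM in all libraries, which says nothing of the unlisted markers. Of 6 keratinocyte and squamous markers above the filter, none passed in siMENA11a. In siMENA the desmosomal cadherin DSG3 fell by 0.64 (adjusted p 0.000122) and the transglutaminase TGM1 rose by 0.42 (0.73 with an added 0.1; adjusted p 0.0196), which was lost without siMENA replicate 1 (0.0664) or 2 (0.0708) or control replicate 1 (0.069) or 3 (0.0516), over 0.0119 to 0.0708. Of the fibroblast, leukocyte and endothelial markers, 1 of 12 was above the filter, CD14, and it did not pass in siMENA11a (0.32, SE 0.25, adjusted p 0.414, and 0.0213 with the replicate block) or in siMENA (adjusted p 0.993).

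**Figure D4:**
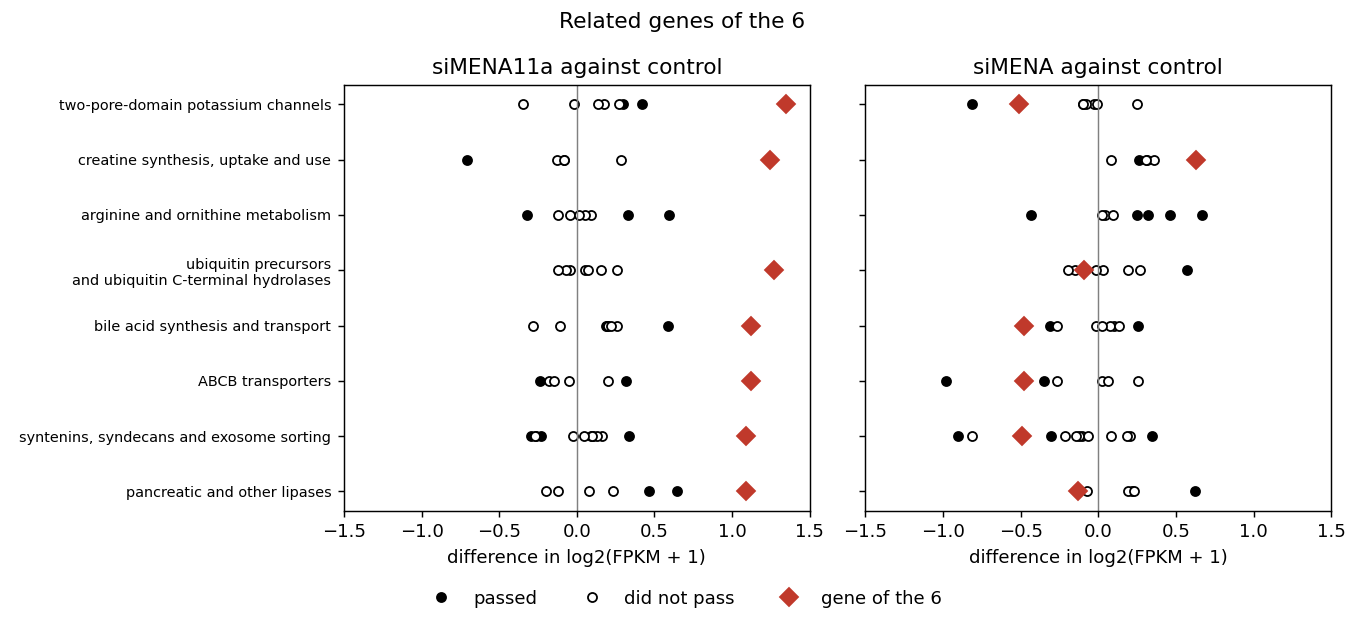
Difference from control in log2(FPKM + 1) for the tested genes of 8 lists related to the 6 genes (filled circles passed at an adjusted p under 0.05, open circles did not, red diamonds are the 6 genes), in siMENA11a at left and siMENA at right. In siMENA11a the 6 genes lie beyond all 59 related genes, which run from -0.71 (CKB) to 0.64 (LIPH); the 6 were chosen for a large rise there.

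The nearest tested gene on each side of the 6 genes was taken from the gene order in RefSeq. Overlapping genes and genes that were not tested were passed over. The distances ran from 0.1 kb (SPATA5L1) to 193.2 kb (HSPA12A). LIMCH1 lay 91.2 kb, YWHAB 133.4 kb, GFRA1 153.1 kb and SHF 160.0 kb away. Of these 12 neighbours, 2 rose and 2 fell in siMENA11a, and 1 fell in siMENA. Of all genes tested, 8.16% were called higher and 11.3% lower in siMENA11a, and 10.3% higher and 8.24% lower in siMENA. With 12 genes these counts do not set the neighbours apart from all genes. DHRS9, a retinol dehydrogenase next to ABCB11, averaged 38.7 ± 2.3 FPKM in siMENA11a, 22.8 ± 0.6 in siMENA and 24.7 ± 1.1 in control (siMENA11a difference 0.63, SE 0.06, limma adjusted p 0.000154). LIMCH1, a regulator of non-muscle myosin next to UCHL1, averaged 30.2 ± 0.2 FPKM in siMENA11a, 18.5 ± 0.4 in siMENA and 19.9 ± 0.3 in control (0.57, SE 0.05, adjusted p 7.29e-05). SPC25, a kinetochore protein on the other side of ABCB11, fell by 0.60 (adjusted p 0.0337), a call lost without siMENA11a replicate 1 (0.0643) or 3 (0.089) or control replicate 2 (0.108) or 3 (0.0999), over 0.015 to 0.108. SHF, next to GATM, fell by 0.51 (-0.99 with an added 0.1; adjusted p 0.0156), which did not hold without control replicate 1 (0.0547; 0.00491 to 0.0547 over the alternatives). In siMENA the neighbour that fell was YWHAB, a 14-3-3 protein gene beside KCNK15, by 0.31 (adjusted p 0.0142), lost without siMENA replicate 1 (0.0613) or 2 (0.0565) or control replicate 3 (0.0621), over 0.00867 to 0.0621. FKBP1A and SNPH, on either side of SDCBP2, GFRA1 and HSPA12A, beside PNLIPRP3, SPATA5L1, beside GATM, and APBB2, beside UCHL1, did not pass in either comparison. WISP2, beside KCNK15, had a difference of -0.38 in siMENA11a (adjusted p 0.082) and passed with the replicate block (0.0119) or without siMENA replicate 2 (0.0155), and in siMENA, where it did not pass (adjusted p 0.235), it did without siMENA replicate 2 (-0.43, 0.0208).

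**Figure D5:**
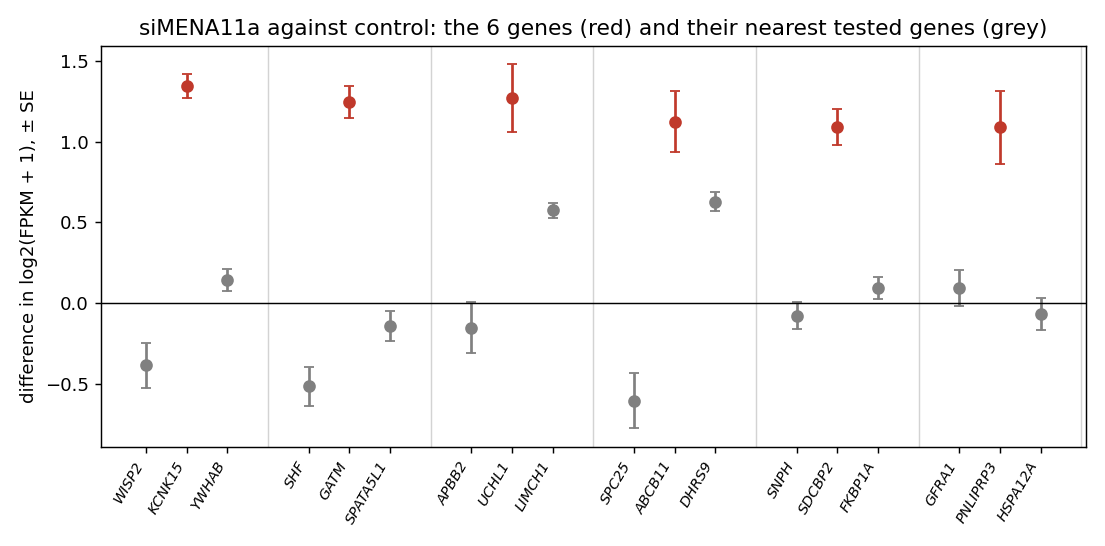
Difference between siMENA11a and control in log2(FPKM + 1), with its SE, for the 6 genes (red) and the nearest tested gene on each side of them (grey), spaced evenly. The neighbours run from -0.60 (SPC25) to 0.63 (DHRS9), below the 1.09 of PNLIPRP3.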

How the data were processed

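Per the labels' protocols, RNA was depleted of ribosomal RNA, made into stranded libraries and read as pairs. The authors deposited FPKM values per gene and library. Per the submitters' processing notes the build was hg19; which aligner, quantifier and annotation they used is not given in the sources used here. Part of the values had lost their decimal point: 11524 whole numbers (7.91% of values) were divided by 1000, where this brought them nearer, on a log scale, to the median of the gene's decimal values, or where the gene had no decimal value. Among the 6 genes this touched GATM and ABCB11 in siMENA11a replicate 3. Genes missing a value in any library (1286) were not tested; they and unlisted genes are described as having no complete values. Control replicate 1 had no missing value, against 411 to 592 in each other library, for a reason not known here. Genes without a value in control replicate 1 may thus be unlisted, and the shares of all genes do not cover unlisted genes. Having no complete values does not show that a gene was not expressed.

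The 13273 genes averaging 0.5 FPKM or more were compared as log2(FPKM + 1) with limma 3.58.1 in R 4.3.3, fitted once to the 9 libraries with a term for group (6 residual degrees of freedom) and with the variance trended on the mean. Benjamini-Hochberg adjustment covered all genes tested, and an adjusted p under 0.05 passed. The fit was also run on simulated data, whose outcome is not reported here and backs no result. FPKM sums ran from 558754 to 592930. RefSeq and GENCODE (GRCh38) gave sequences, gene names and the coordinates printed here. Gene order, distances and overlaps were taken from those coordinates, and no coordinate of the deposited data was used.

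The 6 genes, the lists and the tests were chosen with earlier results of these data known. Named are the 6 genes, ENAH, the nearest tested neighbours, the 3 most like each among genes averaging 1 FPKM or more by Pearson's r, close relatives, and up to 4 genes of each list with the largest change among those that passed in either siRNA group. EPCAM, SERPINA1, CD14 and the genes above or near a difference of 1 in siMENA11a other than the 6 were named after their values were seen. Of the genes named by this rule, 1 is not reported here. RIMS4 and FKBP1A-SDCBP2 were added because they overlap members.

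Replicate numbers are shared between groups. Deviations from the group means correlated between siMENA and control libraries of the same number at 0.124, 0.378 and 0.196. Each was over 0.1 and so was taken as pairing by the rule used. Between siMENA and control libraries of unlike number they ran from -0.242 to 0.113, so the mark of 0.1 is a loose one. Between siMENA11a and control of the same number they were 0.206, 0.425 and -0.0302, and between siMENA11a and siMENA 0.0863, 0.309 and 0.0203. The main fit left the replicate number out although siMENA and control met the rule for pairing, and no reason is given here. The call of ABCB11 in siMENA against control depends on that choice. Alternatives tried were another pseudocount, filters, scalings, no trend, the replicate block, genes with a divided value left out and each library left out in turn.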

Additional observations from a re-analysis of the deposited data

How the results depend on the processing

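In siMENA against control, KCNK15 (-0.58 to -0.47 in log2(FPKM + 1)) and GATM (0.53 to 0.74) kept direction and call in every alternative that could be run for them, 17 and 16. UCHL1, which did not pass, ran from -0.27 (without siMENA replicate 2) to 0.0103 (without siMENA replicate 1) with 1 library left out, a change of sign. The replicate block changed the call of ABCB11 and of no other of the 6 genes in this comparison. In siMENA11a against control the choice of the genes built in a large rise, so the ranges there are a description. The values ran from 1.28 to 1.43 for KCNK15, 1.15 to 1.43 for GATM and 1.01 to 1.62 for UCHL1. They ran from 0.99 to 1.35 for ABCB11, 1.00 to 1.31 for SDCBP2 and 0.90 to 1.88 for PNLIPRP3. GATM and ABCB11 have a divided value, so they have none with such genes left out, nor has PNLIPRP3 under a filter of 2 FPKM.

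The number of genes called was 2583 in siMENA11a against control, 2463 in siMENA against control and 4857 in siMENA11a against siMENA. It was 1362, 1293 and 2716 with genes with a divided value left out, where fewer genes were tested (8461). With 1 library left out it ran from 1493 (without control replicate 3) to 2483, from 1346 (without siMENA replicate 1) to 2902, and from 3626 to 4814. In siMENA against control leaving out siMENA replicate 2 gave 1572, control replicate 1 gave 1555 and control replicate 3 gave 1446. With the replicate block it was 3431, 3149 and 5648. Lower calls made up 44.4% in siMENA against control and 56.2% with median-ratio scaling, and 60.6% in siMENA11a against siMENA and 50.1% with that scaling; list counts of calls changed by at most 1 with median-ratio or quantile scaling or the replicate block. With the block, calls were gained in siMENA11a by KCNK2 (0.28, adjusted p 0.0433), UCHL3, ABCG2 (0.19, 0.0341), SDC2 (-0.27, 0.0304), CD14 and WISP2, and in siMENA by SLC6A8, SDC2 and SERPINA1. Of 49 calls of list genes, neighbouring and overlapping genes and ENAH, 25 held in every alternative run, none reversed, and 22 of the 24 others were lost only when a library was left out. FPKM gives no depth, so the precision of low genes such as PNLIPRP3 is known only from 3 libraries per group.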
